A study of Mus musculus with 23 samples.

Results

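The Ikaros family comprises 5 zinc finger transcription factors, Ikaros (Ikzf1), Helios (Ikzf2), Aiolos (Ikzf3), Eos (Ikzf4) and Pegasus (Ikzf5). Its RNA was followed here across normal thymus and spontaneous T-cell acute lymphoblastic leukemia (T-ALL) of the mouse, tumor by tumor. The members were taken by gene symbol, and all 5 of them were present among the 24475 genes listed. The series holds 23 RNA sequencing libraries. The 6 controls were normal thymus of C57BL/6 mice. The 17 leukemia samples were spleens of BALB/c Rag2-/-Il2rg-/- hosts, which lack lymphocytes of their own and had received a newborn thymus lobe under the kidney capsule. The donor thymus was wild type in 14 of them (WT T-ALL, donors of the congenic B6.Ly5.1 line) and Notch3 knockout in 3 (Notch3 KO T-ALL, an allele with a beta-galactosidase insertion in the first coding exon). All leukemia hosts thus carried the Rag2 and Il2rg deletions and the thymus controls did not. Tissue and host strain part with the groups in the same way, so leukemia, organ and host background cannot be told apart in the comparisons with thymus. Each T-ALL library was unfractionated spleen of 1 mouse, in which fewer cells of a type and less RNA per cell cannot be told apart.

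Ikaros factors act as dimers that bind DNA elements with a GGGAA core through zinc fingers near the N-terminus, while a second pair of fingers at the C-terminus joins members of the family to each other. Ikaros, Helios and Aiolos recruit the NuRD chromatin remodelling and deacetylase complex and, with Sin3 and CtBP proteins, can repress or poise genes of lymphoid development. In thymocytes Ikaros restrains Notch target genes such as Hes1 and Dtx1, and loss of Ikaros function is a well known accompaniment of Notch-driven T-cell leukemia in mice. Helios and Eos are best known from regulatory T cells, and Aiolos from later lymphoid stages. Pegasus is a more distant relative with a different DNA sequence preference.

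The resemblance of the members can be read in the coding sequence of a DNA-binding zinc finger. It is shown because the levels below are compared between genes of similar sequence. Each stretch below is 69 bases of the coding strand from GENCODE M21 transcripts (GRCm38.p6), found through the spacing of its cysteine and histidine codons. Capitals mark the bases that differ from Ikzf1. The stretch is the second finger in Ikzf1, Ikzf2, Ikzf3 and Ikzf4, and the first in Ikzf5. In the genes other than Ikzf1, the finger closest in its residues to that of Ikzf1 was taken.
Ikzf1, chr11:11754024-11754092, plus strand, exon 6 of 9: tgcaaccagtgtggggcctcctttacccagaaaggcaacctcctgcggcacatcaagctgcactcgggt
Ikzf2, chr1:69570575-69570643, minus strand, exon 5 of 8: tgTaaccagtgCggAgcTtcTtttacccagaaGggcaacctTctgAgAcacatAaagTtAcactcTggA
Ikzf3, chr11:98488934-98489002, minus strand, exon 5 of 8: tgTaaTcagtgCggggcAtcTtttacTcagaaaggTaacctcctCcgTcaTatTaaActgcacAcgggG
Ikzf4, chr10:128640223-128640291, minus strand, exon 5 of 9: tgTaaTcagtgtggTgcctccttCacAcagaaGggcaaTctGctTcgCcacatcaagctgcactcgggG
Ikzf5, chr7:131392579-131393821, minus strand, across exons 3 and 4 of 4: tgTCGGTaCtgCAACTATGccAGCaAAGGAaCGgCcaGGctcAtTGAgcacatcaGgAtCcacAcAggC
Helios and Aiolos each differed from Ikaros at 14 of these bases, Eos at 11 and Pegasus at 37. The encoded residues were closer, as Helios and Eos matched Ikaros at all 23, Aiolos at 22 and Pegasus at 7. Even so, over the 10 pairs of members the longest run of identical bases shared by the transcripts compared was 32, which is shorter than the reads the study's methods describe.

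All values below are log2(scaled RPKM + 1), as deposited, unless scaled RPKM is named. RPKM counts reads per transcript length and library size, so levels of different members can be compared. Groups are given as mean ± SD. A gene was called changed when limma gave a Benjamini-Hochberg adjusted p under 0.05 over all genes tested. Between 10154 and 11011 genes reached a scaled RPKM of 1 in a library. The files give no read counts, so the depth of each library could not be read from them. The 8 T lineage markers (genes such as Cd3e and Lck) were all present in the 3 groups, and their summed scaled RPKM spanned 2800 to 3438 in thymus. The same sum spanned 1442 to 3308 among WT tumors and 1716 to 2468 among Notch3 KO tumors. Erythroid markers, 6 of 8 of them found, summed to at most 2.39 in any thymus, where 5 of the 6 stayed under 1. They reached 36.4 to 697 with a WT donor and 361 to 1905 with a knockout donor. The red cell signal of the spleen thus moved with every comparison with thymus, and its part in the differences was tested only as a covariate in the fit. Summed macrophage markers (7 of 7) stayed within 8.56 to 52.4, 16.1 to 276 and 195 to 275 in thymus, WT and Notch3 KO tumors, and neutrophil markers (7 of 7) within 57.1 to 530, 636 to 84321 and 202 to 7564. B cell markers (6 of 6) were low, within 18.2 to 24.3, 0.813 to 6.44 and 1.68 to 4.03, with Pax5 at 0 in all Notch3 KO tumors. The thymus range of these B cell sums lay above both T-ALL ranges. The libraries also fell into 2 sets by the value of a single gene, Sco2, in a split seen only in the data. Set A holds 9 libraries (thymus 5 and 6, WT T-ALL 3, 4, 5 and 7, and all Notch3 KO T-ALL) with Sco2 at 2.30 to 3.92, and set B holds the other 14 with Sco2 at up to 1.00. The Notch3 value itself does not check the knockout, since it counts reads over the whole gene and not at the insertion. It spanned 2.59 to 3.74 in the knockout tumors, 3.17 to 5.78 in the WT tumors and 2.62 to 4.29 in the controls.

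**Figure D1:**
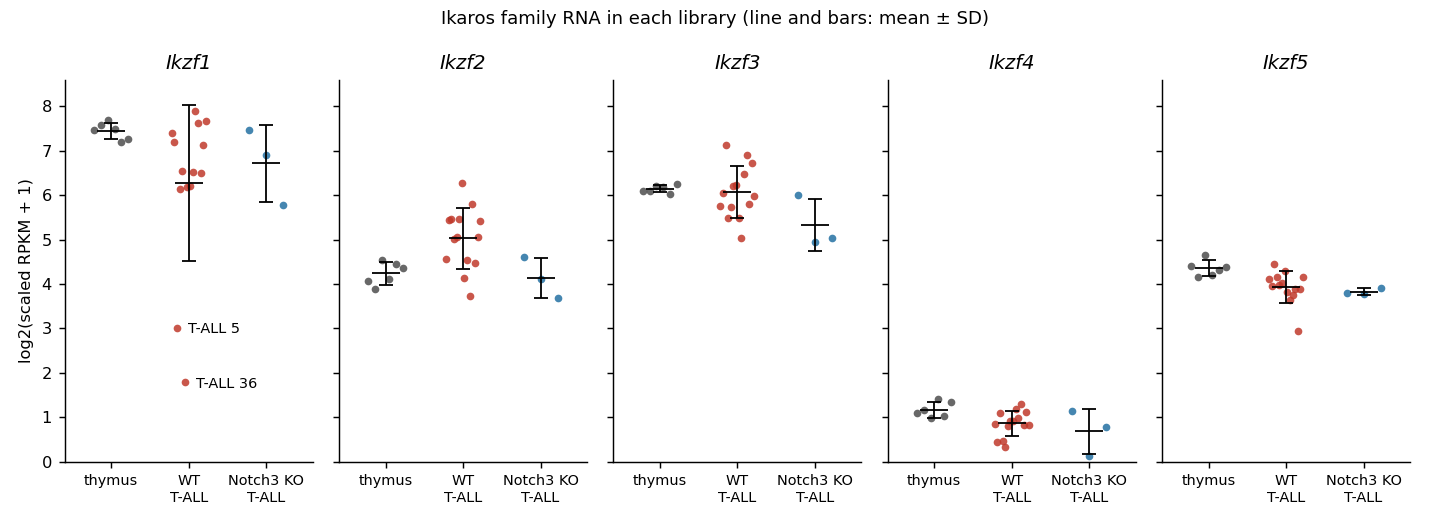
The log2 value of each Ikaros family member (y axis, log2(scaled RPKM + 1)) in 6 thymus, 14 WT T-ALL and 3 Notch3 KO T-ALL libraries, 1 point per library, with the group mean and SD as black line and bars. Ikzf1 lay between 5.77 and 7.90 in every library except WT T-ALL 5 (3.01) and WT T-ALL 36 (1.79), and Ikzf4 did not exceed 1.41 anywhere.

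Ikzf1 (gene 22778, chr11:11684962-11772930), the founding member and a regulator of T-cell differentiation, was the most abundant member in thymus and varied little there. Its log2 values in thymus 1 to 6 were 7.47, 7.58, 7.70, 7.49, 7.20 and 7.27, a mean of 7.45 ± 0.19 (SD, n = 6). In WT T-ALL the lowest value was 1.79, the median 6.54 and the highest 7.90, with a mean of 6.27 ± 1.76 (SD, n = 14). Notch3 KO T-ALL 1, 2 and 3 gave 7.46, 6.91 and 5.77, a mean of 6.72 ± 0.86 (SD, n = 3). The SD in WT T-ALL was the largest of any member in any group. Of the 14 tumors, 10 lay below the lowest thymus and only WT T-ALL 111 lay above the highest.

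In 2 tumors Ikzf1 RNA was far lower than in every other library, and without them the log2 values of WT T-ALL were 6.92 ± 0.64 (SD, n = 12). WT T-ALL 5 had a scaled RPKM of 7.06, which is 4.03% of the thymus mean of 175.2. WT T-ALL 36 had 2.45, or 1.40% of that mean. The remaining 12 WT T-ALL ran from 69.6 to 237.7, so the lowest of them was 9.86 times the value of WT T-ALL 5 and 28.4 times that of WT T-ALL 36. No WT T-ALL lay in the gap between 7.06 and 69.6. These tumors were singled out after their values were seen, and their values are given as a description without a test. Whether they carried a change in the Ikzf1 gene itself was not analysed here. WT T-ALL 5 belonged to set A and WT T-ALL 36 to set B. Their summed T lineage markers, 3195 and 2768, lay within the range of the other tumors, and their erythroid sums of 45.7 and 127.9 lay in its lower part.

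The genes nearest to Ikzf1 with RNA in these tumors were not low along with it. Fignl1, which encodes an ATPase of DNA repair and starts 27.4 kb after the end of Ikzf1, had 5.59 in WT T-ALL 5 and 5.84 in WT T-ALL 36, within the 4.51 to 6.32 of the other 12 WT T-ALL. Ddc (aromatic amino acid decarboxylase), 41.2 kb away, had 3.05 and 1.21, against 0.27 to 4.37. On the other side Zpbp, a sperm protein gene 220.7 kb before Ikzf1, had 1.40 and 1.31, against 0.54 to 1.31. Grb10, an adaptor protein gene 157.6 kb after Ikzf1, was below the others in WT T-ALL 36, at 0.17 against 0.44 to 1.49. In WT T-ALL 5 it was 1.24.

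**Figure D2:**
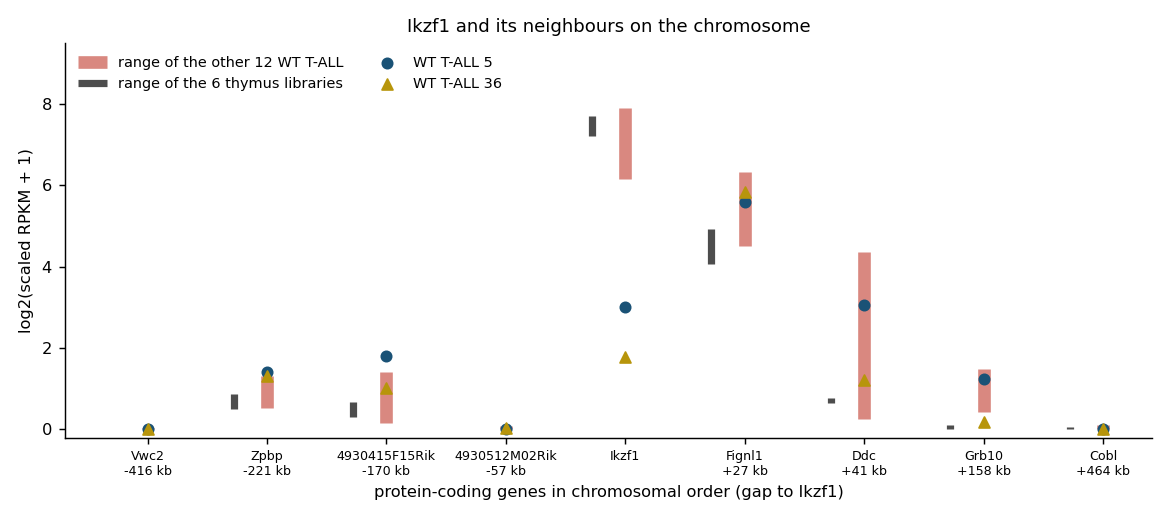
Log2(scaled RPKM + 1) of Ikzf1 and the 4 protein-coding genes on either side of it in their chromosomal order (x axis, gap to Ikzf1 in kb). Red bars span the other 12 WT T-ALL, dark bars the 6 thymus libraries, and the circle and triangle are WT T-ALL 5 and WT T-ALL 36. At Ikzf1 both tumors lie far below the red bar, while at Fignl1 both lie within it.

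Other members were not low in the same tumors. Ikzf3 in WT T-ALL 5 was 7.14, the highest of all 23 libraries, and 6.20 in WT T-ALL 36. Ikzf2 was 5.47 and 5.46, Ikzf5 was 4.45 and 4.02, and Ikzf4 was 1.09 and 0.80. The Ikzf5 value of WT T-ALL 5 was the highest among WT T-ALL.

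Ikzf2 (gene 22779, chr1:69531207-69687351), the Helios gene, was higher in WT T-ALL than in thymus. Thymus 1 to 6 gave 4.07, 3.88, 4.55, 4.11, 4.46 and 4.35, a mean of 4.24 ± 0.26 (SD, n = 6). WT T-ALL ran from 3.74 through a median of 5.06 to 6.28, a mean of 5.03 ± 0.68 (SD, n = 14). Notch3 KO T-ALL 1, 2 and 3 gave 4.61, 4.11 and 3.70. Of the WT tumors, 10 lay above every thymus and 1, WT T-ALL 111, below every thymus, so the groups overlapped. The highest value was that of WT T-ALL 48, at 76.5 scaled RPKM against 13.7 to 22.4 in thymus. The regulatory T cell markers Foxp3, Ctla4, Tnfrsf18, Tnfrsf4, Lrrc32 and Nrp1 together summed to 40.0 to 54.0 in thymus and 20.4 to 83.8 in WT T-ALL. On the log2 scale Foxp3, the factor that defines those cells, was 0.60 to 1.27 in thymus and 0 to 0.24 with a WT donor. The log2 means of Tnfrsf18 and Tnfrsf4 were also lower with a WT donor than in thymus (2.79 against 4.26 and 1.47 against 2.88), while those of Nrp1, Ctla4 and Lrrc32 were higher (4.64 against 3.83, 3.36 against 2.46 and 1.02 against 0.61). Their part in the Ikzf2 difference was not tested.

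Ikzf3 (gene 22780, chr11:98464610-98546031), the Aiolos gene, had nearly the same mean in thymus and WT T-ALL but a far wider spread in the tumors. Thymus lay within 6.04 to 6.25, a mean of 6.15 ± 0.08 (SD, n = 6). WT T-ALL ran from 5.05 through 6.02 to 7.14, a mean of 6.07 ± 0.59 (SD, n = 14), with 4 tumors above and 7 below every thymus. Notch3 KO T-ALL 1, 2 and 3 gave 6.00, 4.96 and 5.04, a mean of 5.33 ± 0.58 (SD, n = 3), all below the lowest thymus.

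Ikzf4 (gene 22781, chr10:128630839-128669671), the Eos gene, was close to the limit of what was kept for testing. Its scaled RPKM was at least 1 in 10 of 23 libraries, of which 5 were thymus, 4 WT T-ALL and 1 Notch3 KO T-ALL. Thymus spanned log2 values of 0.98 to 1.41, WT T-ALL 0.34 to 1.30 with a median of 0.88. Notch3 KO T-ALL 1, 2 and 3 gave 1.14, 0.14 and 0.79. None of the T-ALL libraries exceeded the highest thymus.

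Ikzf5 (gene 67143, chr7:131388649-131410518), the Pegasus gene, had a lower mean in both T-ALL groups than in thymus. With all 3 groups in the fit, limma called this difference in WT T-ALL alone. Thymus 1 to 6 gave 4.41, 4.16, 4.65, 4.20, 4.32 and 4.40, a mean of 4.36 ± 0.18 (SD, n = 6). WT T-ALL ran from 2.95 through 3.97 to 4.45, a mean of 3.93 ± 0.35 (SD, n = 14), and 12 of the 14 lay below every thymus. The lowest was WT T-ALL 126. Notch3 KO T-ALL 1, 2 and 3 lay close together at 3.80, 3.77 and 3.91, below every thymus.

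Adding the scaled RPKM of the members gave the family total, 284 ± 25 in thymus (SD, n = 6), 236 ± 81 in WT T-ALL (SD, n = 14) and 189 ± 82 in Notch3 KO T-ALL (SD, n = 3). Ikzf1 made up 61.5% ± 3.3 of it in thymus, 45.2% ± 20.4 with a WT donor and 59.4% ± 10.2 with a knockout donor. The share of Ikzf2 was 6.41% ± 1.30 in thymus, 16.01% ± 7.97 with a WT donor and 9.42% ± 1.12 with a knockout donor. Ikzf3 held 24.8% ± 1.9, 31.6% ± 13.2 and 22.7% ± 5.8, Ikzf5 6.91% ± 0.75, 6.84% ± 2.59 and 8.10% ± 4.03, and Ikzf4 under 1% in every library.

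In thymus the order of the levels was Ikzf1, Ikzf3, Ikzf5, Ikzf2, Ikzf4 in 5 of 6 thymus libraries. The tumors mostly had Ikzf2 before Ikzf5, with Ikzf1, Ikzf3, Ikzf2, Ikzf5, Ikzf4 in 10 of 14 WT T-ALL and 2 of 3 Notch3 KO T-ALL, and the thymus order in 1 of 14 and 1 of 3. The thymus ranges of Ikzf2 (3.88 to 4.55) and Ikzf5 (4.16 to 4.65) overlapped, and the ranges of Ikzf1 and Ikzf3 overlapped in both T-ALL groups. Ranges across libraries do not address the order within a library, which was not tested. Ikzf3 came first in WT T-ALL 5, with 66.0% of the total against 3.32% for Ikzf1, and in WT T-ALL 36, with 54.2% against 1.83%. Ikzf2 came first in WT T-ALL 48, where Ikzf2, Ikzf3 and Ikzf1 held 31.7%, 30.6% and 29.6%.

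**Figure D3:**
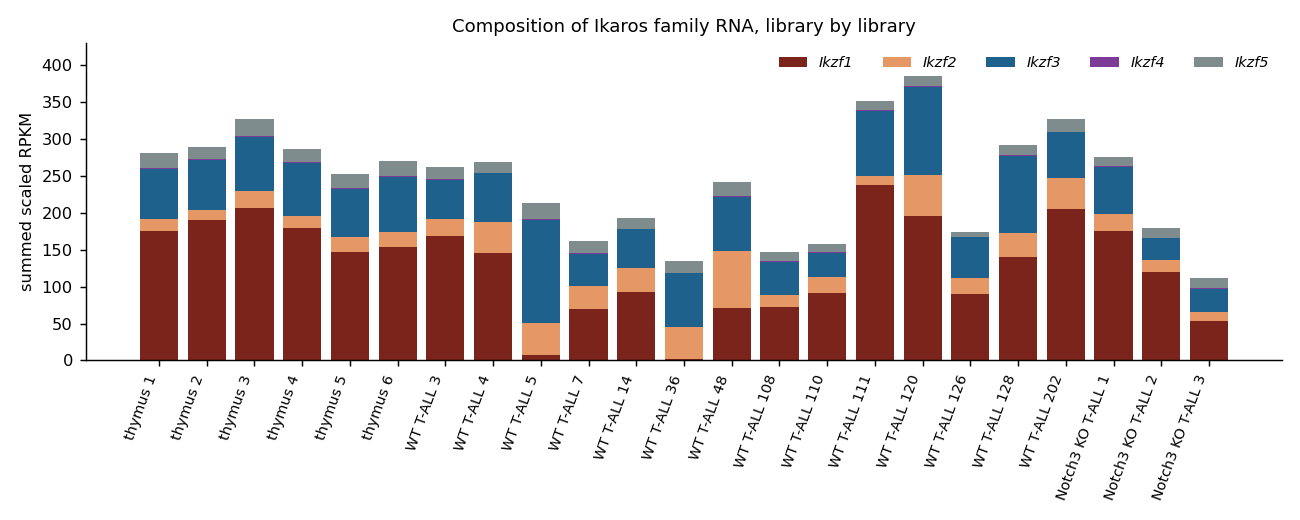
Summed scaled RPKM of the 5 members in each library (stacked bars, y axis from 0, 1 bar per library). Ikzf1 fills most of every thymus bar and is a thin strip in WT T-ALL 5 and WT T-ALL 36, in which Ikzf3 holds 66.0% and 54.2% of the bar.

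WT T-ALL was compared with thymus to ask whether the family differs between leukemic spleen and normal T-cell precursors. Of the 5 members, all of which passed the filter on low values, 1 rose and 1 fell, beside 29.3% of all genes called higher and 22.3% called lower (51.6% in all), so the members were called no more often than genes in general. Over all genes 3493 were called higher and 2657 lower, or 2921 and 3101 after quantile normalization. The same 2 members passed at an unadjusted p under 0.05, beside 57.4% of all genes. Ikzf2 rose by a log2 difference of 0.79 (SE 0.27, 95% interval 0.24 to 1.35, limma adjusted p = 0.0163), a fold of 1.73 on the scale with the offset. Ikzf5 fell by 0.42 on the log2 scale (SE 0.15, 95% interval -0.73 to -0.12, limma adjusted p = 0.0207). For Ikzf1 the difference was -1.18 (SE 0.66, interval -2.53 to 0.18, limma adjusted p = 0.136). It was -0.53 (interval -1.10 to 0.04, limma adjusted p = 0.107) when WT T-ALL 5 and 36 were left out, and -3.31 (interval -6.57 to -0.05, limma adjusted p = 0.248) with the erythroid markers as a covariate. Ikzf3 differed by -0.08 (interval -0.56 to 0.41) and Ikzf4 by -0.31 (interval -0.63 to 0.02). The two-sided exact permutation p, unadjusted, was 0.0934 for Ikzf1, 0.0156 for Ikzf2, 0.762 for Ikzf3, 0.0241 for Ikzf4 and 0.00955 for Ikzf5.

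The Ikzf2 difference was 0.71 in library set A (limma adjusted p = 0.151) and 0.85 in set B (limma adjusted p = 0.0758), and that of Ikzf5 was -0.19 (limma adjusted p = 0.528) and -0.52 (limma adjusted p = 0.0418). Erythroid sums do not overlap between thymus and T-ALL, so that covariate is hard to separate from the groups. Neither call held with it (Ikzf2 1.67, limma adjusted p = 0.146, Ikzf5 0.0045, limma adjusted p = 0.996), and the Ikzf5 call was lost without thymus 3 (-0.36, limma adjusted p = 0.0615). Mitochondrial genes took 44.5% of the summed signal of WT T-ALL 7, and at most 22.5% in any other library. For Ikzf2, WT T-ALL against thymus gave 0.80 without that tumor (limma adjusted p = 0.0193). For Ikzf5, WT T-ALL against thymus gave -0.44 without it (limma adjusted p = 0.0178).

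Notch3 KO T-ALL was compared with thymus for the same question in tumors from a donor thymus without Notch3. Limma called 0 of the 5 members, beside 37.5% of all genes (21.2% higher and 16.3% lower, 2527 and 1948 genes, or 2059 higher and 2450 lower after quantile normalization). At an unadjusted p under 0.05, Ikzf3, Ikzf4 and Ikzf5 passed, beside 46.3% of all genes. Ikzf3 differed by -0.82 (SE 0.34, interval -1.52 to -0.11, limma adjusted p = 0.0620). Ikzf5 differed by -0.53 (SE 0.22, interval -0.97 to -0.09, limma adjusted p = 0.0551), and Ikzf4 by -0.48 (interval -0.95 to -0.01, limma adjusted p = 0.0993). For Ikzf3 and for Ikzf5 the 3 tumors lay below all 6 thymus libraries, and 42.3% of all genes had groups that did not overlap. A two-sided exact permutation test of each of these differences gave p = 0.0119, the smallest that 84 splits allow. Unadjusted, the same exact test gave p = 0.0357 for Ikzf1, 0.0476 for Ikzf4 and 0.667 for Ikzf2. Ikzf1 differed by -0.74 (interval -2.70 to 1.23) and Ikzf2 by -0.10 (interval -0.90 to 0.70). Single knockout tumors weighed on these values. Ikzf1 was -1.11 without Notch3 KO T-ALL 1 and -0.26 without 3, Ikzf2 was -0.34 without 1 and 0.12 without 3, and Ikzf4 was -0.70 without 1 (limma adjusted p = 0.0403) and -0.21 without 2. With the erythroid covariate Ikzf1 was -3.87, Ikzf2 1.18, Ikzf3 0.28 and Ikzf5 0.098, none of them called, and with only thymus and Notch3 KO T-ALL in the fit 2 members, Ikzf3 and Ikzf5, were called, beside 48.9% of all genes in that fit. This comparison shares its thymus libraries with that of WT T-ALL.

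The T-ALL groups were compared with each other to ask whether donor Notch3 bears on the family. None of the 5 members was called by limma, beside 0.617% of all genes (0.591% higher and 0.0257% lower). At an unadjusted p under 0.05 Ikzf2 and Ikzf3 passed, beside 8.51% of all genes. Ikzf2 was 0.89 lower in Notch3 KO T-ALL on the log2 scale (difference -0.89, interval -1.70 to -0.09, limma adjusted p = 0.479). Its exact permutation p, two-sided and unadjusted, was 0.0485. Ikzf3 differed by -0.74 (interval -1.47 to -0.02, limma adjusted p = 0.568), Ikzf4 by -0.17 (interval -0.67 to 0.32) and Ikzf5 by -0.11 (interval -0.55 to 0.34). Ikzf1 differed by 0.44 (interval -1.61 to 2.49), and by -0.21 (interval -1.05 to 0.64) without WT T-ALL 5 and 36. It was -0.55 with the erythroid covariate and 0.78 with library set as a term, so its direction was not settled. With that covariate Ikzf2 differed by -0.48 (interval -1.49 to 0.54) and Ikzf3 by -0.39 (interval -1.31 to 0.53). With library set as a term Ikzf5 differed by -0.34 (interval -0.85 to 0.16). No member had groups without overlap, beside 0.437% of all genes. With 3 knockout tumors these intervals leave room for differences of more than 1 on the log2 scale in Ikzf1, Ikzf2 and Ikzf3.

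**Figure D4:**
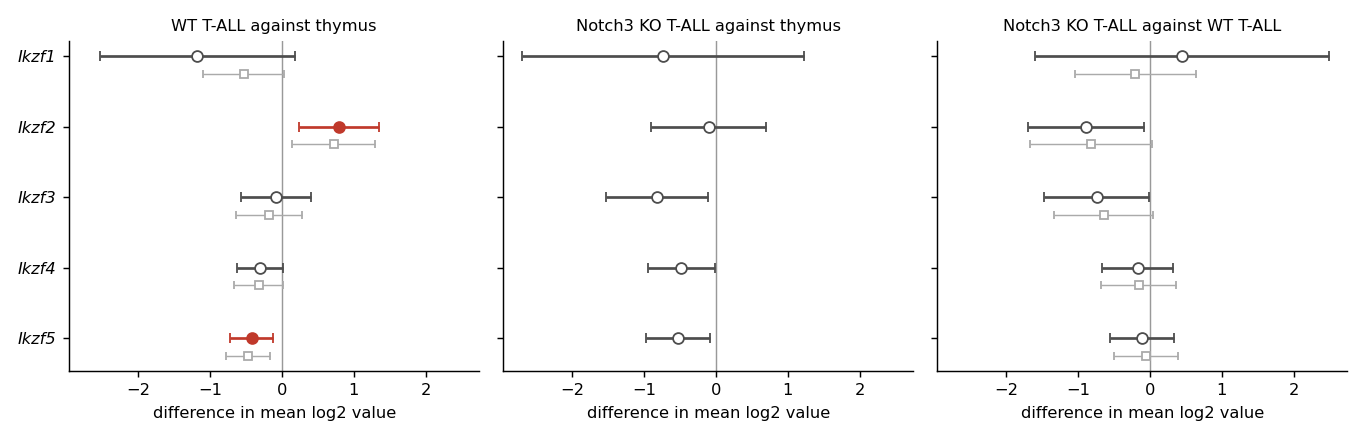
Difference in mean log2 value with its 95% interval (x axis) for each member in the 3 comparisons. Circles are the fits of all samples, filled red where limma called the gene, and grey squares leave out WT T-ALL 5 and 36. Ikzf2 (0.79) and Ikzf5 (-0.42) in WT T-ALL against thymus are the called members, and the interval of Ikzf1 narrows from -2.53 to 0.18 to -1.10 to 0.04 without those tumors.

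Among the 13 subunits of NuRD, the complex through which Ikaros factors reach chromatin, 2 rose and 3 fell in WT T-ALL and 8 did not pass, beside 29.3% of all genes called higher and 22.3% lower. Their median difference was 0.02, beside 0.08 over all genes. The large change was that of Chd3, an ATPase subunit that remodels nucleosomes. It was 4.94 to 5.43 in thymus and 0.72 to 5.97 in WT T-ALL, with a difference of -3.07 (SE 0.63, limma adjusted p = 3.65e-04). Chd3 was at thymus level or above in WT T-ALL 7 (5.20) and WT T-ALL 36 (5.97), intermediate in WT T-ALL 108 (3.38) and 111 (3.18), and at most 2.13 in the other tumors. WT T-ALL 36, the tumor with the least Ikzf1, thus had the most Chd3, while WT T-ALL 5 had 0.77. In Notch3 KO T-ALL it was 1.23 to 2.00 (difference -3.60, SE 0.91, limma adjusted p = 0.00382). Chd4, the ATPase that shares its place in the complex, was 6.54 to 7.26 in thymus and 6.38 to 7.11 in WT T-ALL (difference -0.26, SE 0.14, limma adjusted p = 0.127). The methyl-DNA-binding subunit Mbd2 and the subunit Mta2 fell by 0.49 and 0.32 on the log2 scale. The histone-binding subunit Rbbp7 rose by a log2 difference of 0.63 in WT T-ALL (SE 0.15, limma adjusted p = 0.00176). In Notch3 KO T-ALL 2 subunits rose and 2 fell, beside 21.2% and 16.3% of all genes. That count of 4 ran from 1 to 6 when 1 sample was left out. It was 1 without Notch3 KO T-ALL 3 or thymus 6, 2 without Notch3 KO T-ALL 1 or thymus 5, and 0 with the erythroid covariate. Rbbp4, a close relative of Rbbp7, rose by 0.65 (SE 0.24, limma adjusted p = 0.0379), a call that was lost without any single Notch3 KO T-ALL (limma adjusted p = 0.0538, 0.0842 and 0.149 without replicates 1, 2 and 3) and without thymus 4, 5 or 6 (0.0519, 0.0621 and 0.0869). After quantile normalization the Rbbp4 difference was 0.19 (limma adjusted p = 0.507).

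Of the 4 Sin3 and CtBP corepressor genes, 1 rose and 1 fell in WT T-ALL, beside 51.6% of all genes called, with a median of -0.13. Sin3b, a scaffold for deacetylases, fell by 0.86 on the log2 scale (SE 0.22, limma adjusted p = 0.00278), from 6.95 to 7.39 in thymus to 5.46 to 6.91 in WT T-ALL, with no overlap between the groups (15.1% of all genes had none). Ctbp2, a corepressor that binds NADH, rose by 0.94 (SE 0.33, limma adjusted p = 0.0188) from a low level of 0.20 to 0.51 in thymus, and its highest value was 3.79 in WT T-ALL 110. Neither was called in Notch3 KO T-ALL (Sin3b -0.74, limma adjusted p = 0.0732, Ctbp2 0.93, limma adjusted p = 0.123).

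Cereblon is the substrate receptor of the ubiquitin ligase through which thalidomide analogs degrade Ikaros and Aiolos in human cells. Of the 5 genes of that ligase, 4 rose and 0 fell in WT T-ALL, with a median of 0.41, beside the 29.3% of all genes called higher. The cullin scaffold Cul4a rose by 0.41 (SE 0.11, limma adjusted p = 0.00305), with 3.99 to 4.28 in thymus and 4.32 to 4.98 in WT T-ALL, groups that did not overlap (15.1% of all genes had none). The Cul4a call was lost with the replicate number as a block (0.36, limma adjusted p = 0.193) and within set A (0.30, limma adjusted p = 0.346). The RING subunit Rbx1 rose by 0.46 (SE 0.17, limma adjusted p = 0.0227), a call lost without thymus 4 or 6 (limma adjusted p = 0.0654 and 0.0508). Cul4b, the paralog of Cul4a, rose by 0.38 (limma adjusted p = 0.0131). The adaptor Ddb1 rose by 0.46 (SE 0.19, limma adjusted p = 0.0440), and this call was lost without any of 11 libraries, namely thymus 1, 5 and 6 and WT T-ALL 4, 14, 36, 108, 111, 120, 126 and 128, with limma adjusted p up to 0.144 without thymus 6, and after quantile normalization (0.24, limma adjusted p = 0.304). Crbn, the receptor itself, was 4.12 to 4.92 in thymus and 3.34 to 5.25 in WT T-ALL (difference -0.26, limma adjusted p = 0.377). In Notch3 KO T-ALL only Cul4a was called, with values of 4.71 to 5.36 (difference 0.92, SE 0.15, limma adjusted p = 9.28e-05). With the erythroid covariate that difference was 0.068 (SE 0.34, limma adjusted p = 0.961).

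Of the 16 lymphoid genes listed as regulated by Ikaros, 14 could be tested, and Igll1 and Il2 did not pass the filter. In WT T-ALL 4 rose and 8 fell, beside 29.3% and 22.3% of all genes, and the median difference was -1.46 beside 0.08 over all genes. The 4 that rose were the Notch targets Hes1 (difference 2.98, SE 0.31, limma adjusted p = 8.78e-08) and Dtx1 (difference 3.04, SE 0.40, limma adjusted p = 2.59e-06), the gene of the growth-promoting transcription factor Myc (difference 1.87) and Ctnnd1, which encodes p120 catenin (difference 2.87). The 8 that fell included the coreceptor gene Cd4 (difference -4.30, SE 0.50, limma adjusted p = 4.12e-07) and the recombinase gene Rag1 (difference -3.63, SE 0.67, limma adjusted p = 1.15e-04). Cd8a, Rag2, Dntt, Cdkn1b, Ccnd3 and Bcl2 also fell, by 1.38 to 2.67 on the log2 scale. Il2ra and Il7r, the receptor chains of early T-cell precursors, differed by 0.09 and -0.57 without a call. In Notch3 KO T-ALL 4 rose and 9 fell, beside 37.5% of all genes called, with a median of -1.96, among them Cd4 (difference -3.24, limma adjusted p = 0.00132), Rag1 (difference -4.37, limma adjusted p = 0.00125) and Rag2 (difference -3.53, limma adjusted p = 0.00977). The Rag2 call was lost without Notch3 KO T-ALL 1 (limma adjusted p = 0.0986) or 3 (limma adjusted p = 0.0559). Between the T-ALL groups, 0 of the 36 genes tested from the partner, ligase and target lists were called by limma, beside 0.617% of all genes, and 4 had an unadjusted p under 0.05, beside 8.51%. In WT T-ALL against thymus, with the erythroid markers as a covariate, 0 NuRD, 0 corepressor and 0 ligase genes and 2 lymphoid genes were called, beside 3.62% of all genes. Within library set A the counts were 0, 0, 0 and 7, beside 15.2% of all genes, and within set B they were 6, 1, 1 and 12, beside 42.7%. In Notch3 KO T-ALL against thymus the counts with the covariate were 0, 0, 0 and 1, beside 0.21% of all genes. In WT T-ALL, with the covariate, Sin3b was -0.86 (SE 0.56), Rag1 -3.39 (SE 1.67), Dtx1 2.87 (SE 1.01) and Chd3 -2.23 (SE 1.57). Cd4 was -1.90 (SE 1.12), Rbbp7 0.33 (SE 0.38) and Ctbp2 0.27 (SE 0.80), and Cul4a and Ddb1 turned in direction (-0.17 and -0.33). In set A Chd3 was -3.02 (SE 1.05) and Rbbp7 0.92 (SE 0.29).

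**Figure D5:**
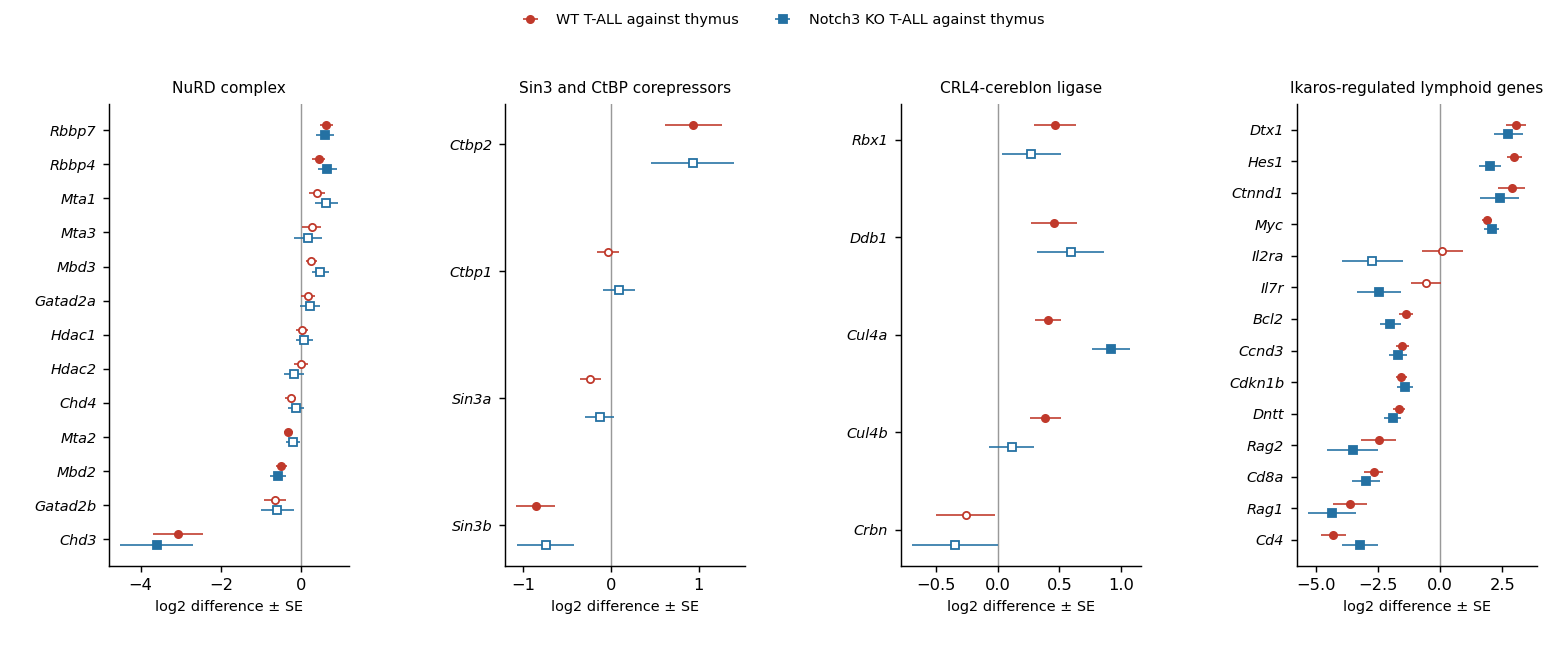
Log2 difference from thymus with its SE (x axis) for genes of the NuRD complex, the Sin3 and CtBP corepressors, the cereblon ligase and the lymphoid genes regulated by Ikaros, in WT T-ALL (red circles) and Notch3 KO T-ALL (blue squares), filled where limma called the gene. Chd3 stands apart in the NuRD complex at -3.07 and -3.60, and the lymphoid genes spread from Cd4 at -4.30 to Dtx1 at 3.04 in WT T-ALL. The axes differ in scale between the lists.

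In WT T-ALL 5 and WT T-ALL 36 most of the lymphoid target genes lay within the range of the other tumors. Both were above the median of the other 12 for Hes1, Dtx1, Ctnnd1, Il2ra, Cdkn1b, Ccnd3, Dntt, Rag1, Rag2, Il7r and Cd4. That median was 5.19 for Hes1, 6.10 for Dtx1, 4.17 for Il2ra and 6.76 for Rag1. For Bcl2 both were below it, and for Myc and Cd8a they lay on either side of it. These directions were not tested. Hes1 was 5.40 and 6.00 in these tumors and 4.61 to 6.46 in the other 12. Dtx1 was 7.07 and 7.58, against 4.03 to 7.40. Il2ra, the gene of the interleukin 2 receptor alpha chain CD25, was 6.81 and 8.23, against 0.71 to 7.75, and the value of WT T-ALL 36 was the highest in the series. Cdkn1b, which encodes the cell cycle inhibitor p27, was 5.56 and 5.88, above the 3.56 to 5.40 of the other WT tumors and below the 6.39 to 6.93 of thymus. Rag1 was 7.85 and 7.55, Dntt 8.42 and 8.65, and Cd4 4.94 and 4.68, all within or just above the ranges of the other 12 (3.60 to 7.80, 6.68 to 8.82 and 1.90 to 6.30). Of the partner genes, Ctbp2 was 0.46 and 0.31, below the 0.63 to 3.79 of the other WT tumors and within the 0.20 to 0.51 of thymus. The ligase gene Rbx1 behaved alike, at 5.43 and 5.80, against 5.94 to 7.05 in the other WT tumors and 5.41 to 5.93 in thymus. Further list genes lay outside the range of the other WT tumors in a single one of these tumors, such as Rbbp4 in WT T-ALL 5 (7.10 against 7.40 to 8.44).

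Over the tumors 25 relations were examined, 10 of them between members and 15 of a member with the T lineage markers, the erythroid markers or Hes1, and none passed adjustment. Because Ikzf1 fell into separate clusters, its 7 relations were computed over the 12 WT T-ALL other than 5 and 36, and the other 18 over all 14. Of the 25, 3 Pearson and 4 Spearman values had an unadjusted permutation p under 0.05. Ikzf1 and Ikzf3 had r = 0.60 over 12 tumors (permutation p = 0.0409, adjusted p = 0.355, rho = 0.55, permutation p = 0.0708, adjusted p = 0.283), 0.53 without the 2 tumors farthest on Ikzf3, and 0.62 over the 9 of them in library set B. With WT T-ALL 5 and 36 included the direction turned, to r = -0.19 over 14 tumors (permutation p = 0.529). Ikzf2 and Ikzf5 had r = 0.54 over 14 tumors (permutation p = 0.0455, adjusted p = 0.355, rho = 0.68, permutation p = 0.00881, adjusted p = 0.110), 0.50 without the 2 tumors farthest on Ikzf2, and 0.59 in set B. Hes1 and Ikzf4 had r = -0.54 (permutation p = 0.0440, adjusted p = 0.355, rho = -0.63, permutation p = 0.0200, adjusted p = 0.167), -0.58 without the 2 farthest, and -0.72 in set B. Hes1 and Ikzf5 had the lowest adjusted value, with rho = 0.73 (permutation p = 0.00394, adjusted p = 0.0985, r = 0.45, permutation p = 0.106, adjusted p = 0.442), r = 0.42 without the 2 farthest, and 0.43 in set B. Ikzf2 and Ikzf3 had rho = 0.54 (permutation p = 0.0480, adjusted p = 0.283, r = 0.41, permutation p = 0.149, adjusted p = 0.464), r = 0.70 without the 2 farthest, and 0.38 in set B. The T lineage markers did not pass with any member, and neither did the erythroid markers.

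For each member the 3 genes of most similar profile over the 14 WT T-ALL were found among 11176 genes, as a description. For Ikzf1 these were Cited4 (a transcriptional coregulator), Rcan1 (a calcineurin inhibitor) and Septin8 (a cytoskeletal GTPase), which were low in WT T-ALL 5 and 36 as well. Cited4 was 1.44 and 0.45 there and 2.01 to 3.49 in the other 12, Rcan1 was 1.99 and 1.89 against 2.56 to 3.19, and Septin8 was 2.73 and 1.29 against 3.04 to 5.19. Without the 2 tumors their r with Ikzf1 was 0.42, 0.19 and 0.35, so the likeness rested on those tumors. Cited4 did not follow Ikzf1 into thymus, where it was 0.20 to 0.65. For Ikzf2 the genes were Gimap6 (r = 0.86), a lymphocyte GTPase, Atm (r = 0.86), the DNA damage kinase, and Ift80 (r = 0.83), of ciliary transport. For Ikzf3 they were Airn (r = 0.89), a non-coding RNA antisense to Igf2r, Pdp2 (r = 0.86), a mitochondrial phosphatase, and Camk4 (r = 0.85), a calcium-dependent kinase of T cells. For Ikzf4 they were Lrrc8d (r = 0.88), Ctnnd1 (r = 0.81) and Rere (r = 0.80), and for Ikzf5 Tug1 (r = 0.94), Tmem184c (r = 0.93) and Dnm1l (r = 0.91). Without the 2 tumors farthest on the member, r in the order named was 0.75, 0.80 and 0.83 for Ikzf2 and 0.78, 0.80 and 0.75 for Ikzf3. It was 0.85, 0.67 and 0.68 for Ikzf4 and 0.84, 0.84 and 0.66 for Ikzf5. Over all 23 libraries Gimap6 had r = -0.025 with Ikzf2 and Ctnnd1 had 0.11 with Ikzf4. The other genes named for Ikzf2 to Ikzf5 had 0.39 to 0.85 there. The r values over the 14 WT T-ALL are the highest of 11176 and are given without a test.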

How the data were processed

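RNA of 6 thymus, 14 WT T-ALL and 3 Notch3 KO T-ALL samples was sequenced from stranded mRNA libraries. The authors aligned reads against mm10 transcripts with OSA, run inside ArrayStudio, and deposited gene values as log2(scaled RPKM + 1). The scaling put the 75th percentile of every sample at a scaled RPKM of 10.0, and how it was done is not given in the sources used here. The table lists 24475 genes, of which 27 symbols turned into dates were restored from gene IDs. Read counts were not analysed here, so no counting interval is given, and the offset understates fold changes of low genes.

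Groups came from the sample labels. Per the study, each sample is 1 mouse, and p-values measure the spread between these samples. Genes that reached a scaled RPKM of 1 in 3 or more fitted samples were tested with limma 3.58.1 (trend and robust settings, R 4.3.3) on the deposited log2 values, with Benjamini-Hochberg adjustment over all genes and a threshold of 0.05. Comparisons with thymus fitted all 3 groups and the comparison of T-ALL groups fitted those alone. Fold changes are on the scale with the offset. Exact permutation tests enumerated all splits, two-sided. Correlations used 100000 permutations, and adjusted values cover the 25 relations. The scripts were tested on simulated data, with Python 3.11.15, NumPy 2.4.6 and SciPy 1.17.1. Coordinates are from RefSeq GRCm38.p6, the build mm10 is made from, and sequences from GENCODE M21 transcripts.

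The members, gene lists and marker lists were chosen with earlier results of these data known. List genes were named where called against thymus and among the 3 largest differences of their list, and others (such as Chd4, Crbn, Hes1 and the values in WT T-ALL 5 and 36) after their values were seen. The genes most like a member were the 3 with the highest Pearson r, leaving out receptor, immunoglobulin, hemoglobin, ribosomal protein, Gm and Rik genes. Alternatives were quantile normalization, offsets of 0.1 and 0.01, no filter or a filter at 5, other groups in the fit, limma without trend, the erythroid markers as a covariate, the replicate number as a block, and leaving out each sample. The library sets and the fits without WT T-ALL 5 and 36 were added after seeing the data.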

Additional observations from a re-analysis of the deposited data

How the results depend on the processing

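The causes of the changes below were not tested. Against thymus, 6150 genes were called in WT T-ALL, but 431 (146 higher, 285 lower) with the erythroid covariate, 2926 with the replicate block and 1709 within set A. In Notch3 KO T-ALL it was 4475, but 25 (8 higher, 17 lower) with that covariate, 2825 within set A, and 2859 (without Notch3 KO T-ALL 3) to 4714 when leaving out 1 sample. Between the T-ALL groups it was 72, but 254 with 3 groups in the fit, 159 with library set as a term, 134 with no filter, 46 without WT T-ALL 5 and 36, 39 and 2 with offsets of 0.1 and 0.01, 13 within set A, 10 with the covariate and 6 with a filter at 5. Leaving out 1 sample gave 3 to 205 (205 without Notch3 KO T-ALL 1, 3 without 2, 12 without 3 and 158 without WT T-ALL 108).

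Of the 2 members called in WT T-ALL, 0 were called with the covariate, the replicate block or within set A, 1 within set B and 1 to 2 when leaving out 1 sample (1 without thymus 3). In Notch3 KO T-ALL against thymus, 0 members were called, but 2 with 2 groups in the fit (Ikzf3, limma adjusted p = 0.00819, and Ikzf5, limma adjusted p = 0.00950), 1 with library set as a term (Ikzf5, limma adjusted p = 0.0207), 2 after quantile normalization, which shifted the median of all genes by -0.14 (Ikzf3, limma adjusted p = 0.0281, and Ikzf4, limma adjusted p = 0.0122), and 0 to 2 when leaving out 1 sample (2 without Notch3 KO T-ALL 1 or WT T-ALL 5, 1 without WT T-ALL 110 or 126). In WT T-ALL quantile normalization also called Ikzf4 (-0.51, limma adjusted p = 0.0110). Ikzf2 in WT T-ALL stayed called when leaving out any 1 sample (0.70 to 0.89).

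Directions turned with the covariate for Ikzf3 (0.67), Ikzf5 (0.0045), Cul4a (-0.17) and Ddb1 (-0.33) in WT T-ALL, for Ikzf2 (1.18), Ikzf3 (0.28), Ikzf5 (0.098), Cd4 (0.29) and Rbbp4 (-0.44) in Notch3 KO T-ALL, and between the T-ALL groups for Ikzf1 (-0.55) and Ikzf5 (0.10). Ikzf1 between the T-ALL groups turned without WT T-ALL 5 and 36 (-0.21). With 1 sample left out, Ikzf3 in WT T-ALL ran from -0.16 to 0.0037, Ikzf2 in Notch3 KO T-ALL from -0.34 to 0.12 and Ikzf4 between the T-ALL groups from -0.40 to 0.10. The relation of Ikzf1 with Ikzf3 (0.60), Ikzf5 (0.083) and the erythroid markers (-0.028) over 12 tumors had the other sign over all 14, as had Ikzf1 with Ikzf4 over 14 with an offset of 0.1 (-0.013). Without the 2 tumors farthest on the first measure, correlations turned for Ikzf2 and Ikzf1 over 12 tumors (-0.079 to 0.65), T lineage markers and Ikzf1 over those 12 (-0.012 to 0.50), Ikzf2 and Ikzf4 (0.020), T lineage markers and Ikzf4 (0.096) and erythroid markers and Ikzf4 (-0.059). None of these passed adjustment.

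Same-numbered samples did not pair. Their deviations correlated by -0.24 to 0.13 (thymus with WT T-ALL, 0 of 3 highest with their own number) and -0.028 to 0.15 (with Notch3 KO T-ALL, 1 of 3). With the replicate block Ikzf2 in WT T-ALL was 0.88 (limma adjusted p = 0.0543), Ikzf3 0.21 and Ikzf5 -0.21, and Ikzf2 in Notch3 KO T-ALL was 0.065. The T-ALL groups shared 1 number, so no block was fitted between them.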

Other observations

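Summed markers of cells other than T cells and red cells were measured in each group. Those of megakaryocytes did not overlap between thymus and T-ALL, and neither did those of B cells (18.2 to 24.3 in thymus, at most 6.44 in T-ALL). Neutrophil sums did not overlap between thymus (at most 530) and WT T-ALL (at least 636). Macrophage sums did not overlap between thymus (at most 52.4) and Notch3 KO T-ALL (at least 195). Summed megakaryocyte markers (5 of 5, scaled RPKM) spanned 0.705 to 1.27 in the controls, 4.18 to 200.2 in WT T-ALL and 60.9 to 185.2 with a knockout donor. Those of plasmacytoid dendritic cells (5 of 5), in which Ikaros factors are also made, were 300.6 to 538.3, 50.1 to 1093 and 57.7 to 748.4, so the thymus range lay within both T-ALL ranges. That sum was mostly Ly6d (group means 357.9, 312.1 and 315.3) and Bst2 (43.5, 49.0 and 43.1), genes that T cells can also express, while Siglech averaged 0.569, 0.253 and 0.102, so it says little about plasmacytoid dendritic cells. Natural killer cell markers (4 of 4) were 1.48 to 3.48, 0.256 to 2.18 and 0.354 to 1.50, with Ncr1 at 0 in Notch3 KO T-ALL. Thymic epithelium markers (6 of 6) were 6.95 to 9.49, 2.42 to 9.73 and 3.34 to 8.84, and those of endothelium and stroma (6 of 6) 32.7 to 38.8, 29.5 to 129.5 and 39.6 to 62.1. Their part in the levels of the Ikaros family was not tested.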
